A study of Mus musculus with 15 samples.

Results

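The 2′,5′-oligoadenylate synthetases (OAS) and the interferon-induced proteins with tetratricopeptide repeats (IFIT) are antiviral effectors of the interferon response. Their transcripts were followed in irradiated mouse submandibular glands with and without iEV treatment. The 9 genes, 5 of the OAS family (Oas1a, Oas2, Oas3, Oasl1 and Oasl2) and 4 of the IFIT family (Ifit1, Ifit2, Ifit3 and Ifit3b), were taken by symbol from a count table of 21013 genes. All 9 were present, and all 9 were among the 16042 genes that passed a low-count filter. A gene can pass this filter through the libraries of 1 group alone, but each of the 9 had 13 or more counts in every library.

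Bulk RNA was sequenced from the submandibular glands of wild-type male C57BL/6 mice, 8 to 10 weeks old, in 15 libraries. There were 5 groups of 3 libraries. IR_iEV_4d glands received 15 Gy at the gland region and weekly iEV injections into the gland that began on day 1, and were taken on day 4. IR_4d glands received the same dose and were taken on day 4. IR_iEV_30d and IR_30d are the matching pair taken on day 30, and NT glands received no treatment. Extracellular vesicles of mesenchymal stem cells are named in the title of the series, while the labels do not spell out iEV. No group is named as injected with vehicle, so the injection and the iEVs cannot be told apart in IR_iEV against IR, called the iEV change below. The day on which NT glands were taken is not stated, nor is whether each library came from its own mouse, so p-values measure the spread between these libraries, which may be partly technical.

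OAS enzymes are switched on by double-stranded RNA and make 2′,5′-linked oligoadenylates, second messengers of the antiviral state. IFIT proteins bind RNA with foreign 5′ ends and hold back its translation. Both families are transcribed when type I or type III interferon activates the transcription factor complex ISGF3, which binds a DNA element of repeated GAAA blocks. In mouse the OAS genes described here lie on chromosome 5 and the IFIT genes in 1 cluster on chromosome 19.

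The promoter sequences are shown because such an element is the known common input of both families. RefSeq promoters of GRCm38.p6, each 250 bases before to 50 bases after a gene start, were found for 8 of the 9 genes. They were searched on both strands for GAAANNGAAA, which reads TTTCNNTTTC on the other strand. The letters occurred in the promoters of 5 of these 8 genes, and in 3.99% of all 27025 symbols in that table (3.44% of 32851 promoters). The stretches that hold them, in gene direction and with each match in capitals, were
Oas1a, chr5:120907508-120907567, minus strand: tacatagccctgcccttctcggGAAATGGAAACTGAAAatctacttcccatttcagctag
Oas3, chr5:120777700-120777759, minus strand: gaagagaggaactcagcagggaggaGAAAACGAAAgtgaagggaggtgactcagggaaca
Ifit1, chr19:34640769-34640828, plus strand: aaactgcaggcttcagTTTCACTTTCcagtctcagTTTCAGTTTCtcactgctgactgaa
Ifit3, chr19:34583363-34583426, plus strand: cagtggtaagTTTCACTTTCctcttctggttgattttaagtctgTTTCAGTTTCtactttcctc
Ifit3b, chr19:34607759-34607822, plus strand: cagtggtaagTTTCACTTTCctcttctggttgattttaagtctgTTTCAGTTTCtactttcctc

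Oas1a carried 2 matches that overlap, starting 20 and 14 bases before the gene start, and Oas3 carried 1 match, 75 bases before it. Ifit1 carried 2 matches in the other orientation, 104 and 85 bases before the start. The stretches of Ifit3 and Ifit3b read the same letter for letter, and the longest stretch that these promoters share was 169 bases. Windows of Oasl1, Oasl2 and Ifit2 held no match, which says only that these letters are not in these windows. A match is a description of sequence, and nothing was measured of binding to it.

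Total counts per library ran from 29082798 to 52201098, and the share of counts in the top 10 genes was 39.9 to 50.4%. Products of the granular convoluted tubules, which define the male mouse submandibular gland, summed to 47949 CPM or more in every library. Sublingual markers had a mean log2 CPM of 7.48 to 10.7 in 6 libraries (IR_iEV_4d replicates 2 and 3, IR_4d replicates 1 and 2, IR_iEV_30d replicate 2, NT replicate 1) and of -1.97 to 2.37 in the other 9. Parotid markers summed to 1537 to 6310 CPM in IR_iEV_4d and 220 to 6828 CPM in IR_4d, above the 18.5 to 85.1 CPM of NT. On day 30 they summed to 19.8 to 1835 CPM in IR_iEV_30d and 35.3 to 429 CPM in IR_30d. Adipose markers summed to 59.5 to 487 CPM in IR_iEV_4d, 9.57 to 205 CPM in IR_4d and 6.63 to 28.7 CPM in NT. The parotid level was not used as a covariate, and its part in the day 4 comparisons was not tested. Replicates of a group differed by more than counting noise in every pair, so none was counted as a repeat.

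Across the study the 9 genes kept 1 order at its ends. Every one of the 9 had its highest group mean in IR_30d glands and its lowest in IR_4d glands, with both iEV groups and NT between. Levels are library-size scaled counts (CPM, on effective library sizes), given for replicates 1, 2 and 3 in turn. In bulk tissue, fewer cells of a type and less RNA per cell cannot be told apart.

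Oas1a, a synthetase with 1 catalytic unit, stood at 2.03, 2.19 and 2.41 CPM in IR_iEV_4d, 1.33, 1.36 and 0.909 CPM in IR_4d, 4.00, 3.30 and 2.99 CPM in IR_iEV_30d, 4.38, 5.68 and 6.75 CPM in IR_30d and 1.49, 2.11 and 1.98 CPM in NT. The IR_30d libraries lay above all others and the IR_4d libraries below all others, and only IR_iEV_4d and NT overlapped among neighbours in the order. Oas2, which joins 2 synthetase units in 1 protein, stood at 3.90, 4.38 and 4.97 CPM in IR_iEV_4d, 1.98, 1.75 and 0.909 CPM in IR_4d, 3.75, 4.64 and 3.04 CPM in IR_iEV_30d, 6.07, 10.6 and 8.39 CPM in IR_30d and 2.38, 1.76 and 1.96 CPM in NT. IR_30d was again highest without overlap, both iEV groups overlapped each other above NT, and IR_4d overlapped NT.

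Oas3, the longest synthetase, stood at 1.38, 1.90 and 1.14 CPM in IR_iEV_4d, 0.414, 0.513 and 0.454 CPM in IR_4d, 2.27, 2.43 and 1.11 CPM in IR_iEV_30d, 3.90, 5.13 and 3.66 CPM in IR_30d and 0.401, 0.786 and 0.629 CPM in NT. Its order was that of Oas2 with the iEV groups exchanged, and those groups overlapped. These levels rest on few reads, with 13 to 17 counts per library in IR_4d and 14 to 34 counts in NT.

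Oasl1 has the OAS fold without synthetase activity, and in mouse it restrains translation of the transcription factor Irf7. It stood at 2.55, 3.30 and 2.61 CPM in IR_iEV_4d, 2.10, 1.27 and 1.85 CPM in IR_4d, 4.77, 2.40 and 6.25 CPM in IR_iEV_30d, 5.95, 5.31 and 4.83 CPM in IR_30d and 3.44, 3.99 and 6.71 CPM in NT. IR_30d, NT and IR_iEV_30d overlapped one another, and IR_iEV_30d replicate 2 lay below every IR_iEV_4d library. Oasl2, an OAS-like protein that keeps synthetase activity in mouse, stood at 14.2, 16.8 and 13.2 CPM in IR_iEV_4d, 6.42, 10.3 and 7.34 CPM in IR_4d, 23.3, 15.5 and 23.8 CPM in IR_iEV_30d, 22.1, 24.8 and 26.3 CPM in IR_30d and 9.45, 11.4 and 22.4 CPM in NT. Each group overlapped its neighbour in the order, and NT replicate 3 lay at about the IR_30d level for both Oasl genes.

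Ifit1, which binds viral RNA ends that lack the cap methylation of the host, stood at 5.93, 5.18 and 6.36 CPM in IR_iEV_4d, 2.69, 3.44 and 2.13 CPM in IR_4d, 5.40, 4.61 and 5.31 CPM in IR_iEV_30d, 10.1, 8.35 and 9.22 CPM in IR_30d and 4.35, 4.46 and 7.52 CPM in NT. IR_30d lay above and IR_4d below all other libraries, and the 3 groups between overlapped. Ifit2, another RNA-binding member, stood at 6.16, 2.98 and 5.28 CPM in IR_iEV_4d, 3.52, 2.35 and 1.78 CPM in IR_4d, 4.37, 3.65 and 1.86 CPM in IR_iEV_30d, 6.28, 5.85 and 8.28 CPM in IR_30d and 4.15, 2.77 and 3.59 CPM in NT. Every neighbouring pair of groups overlapped for Ifit2.

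Ifit3, whose human homologue stabilises IFIT1, stood at 7.86, 5.99 and 7.06 CPM in IR_iEV_4d, 2.57, 2.51 and 2.17 CPM in IR_4d, 7.53, 7.02 and 4.93 CPM in IR_iEV_30d, 13.0, 12.2 and 15.6 CPM in IR_30d and 3.44, 5.82 and 5.18 CPM in NT. The IR_30d libraries were highest and the IR_4d libraries lowest, both without overlap, while IR_iEV_30d overlapped IR_iEV_4d and NT. Ifit3b, its close paralog, stood at 2.13, 1.88 and 1.61 CPM in IR_iEV_4d, 1.45, 1.66 and 0.909 CPM in IR_4d, 2.16, 1.57 and 1.38 CPM in IR_iEV_30d, 3.87, 3.84 and 3.92 CPM in IR_30d and 1.58, 0.472 and 2.46 CPM in NT. Only IR_30d stood apart for Ifit3b, and NT spread from the lowest library of all to 2.46 CPM, below every IR_30d library.

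**Figure D1:**
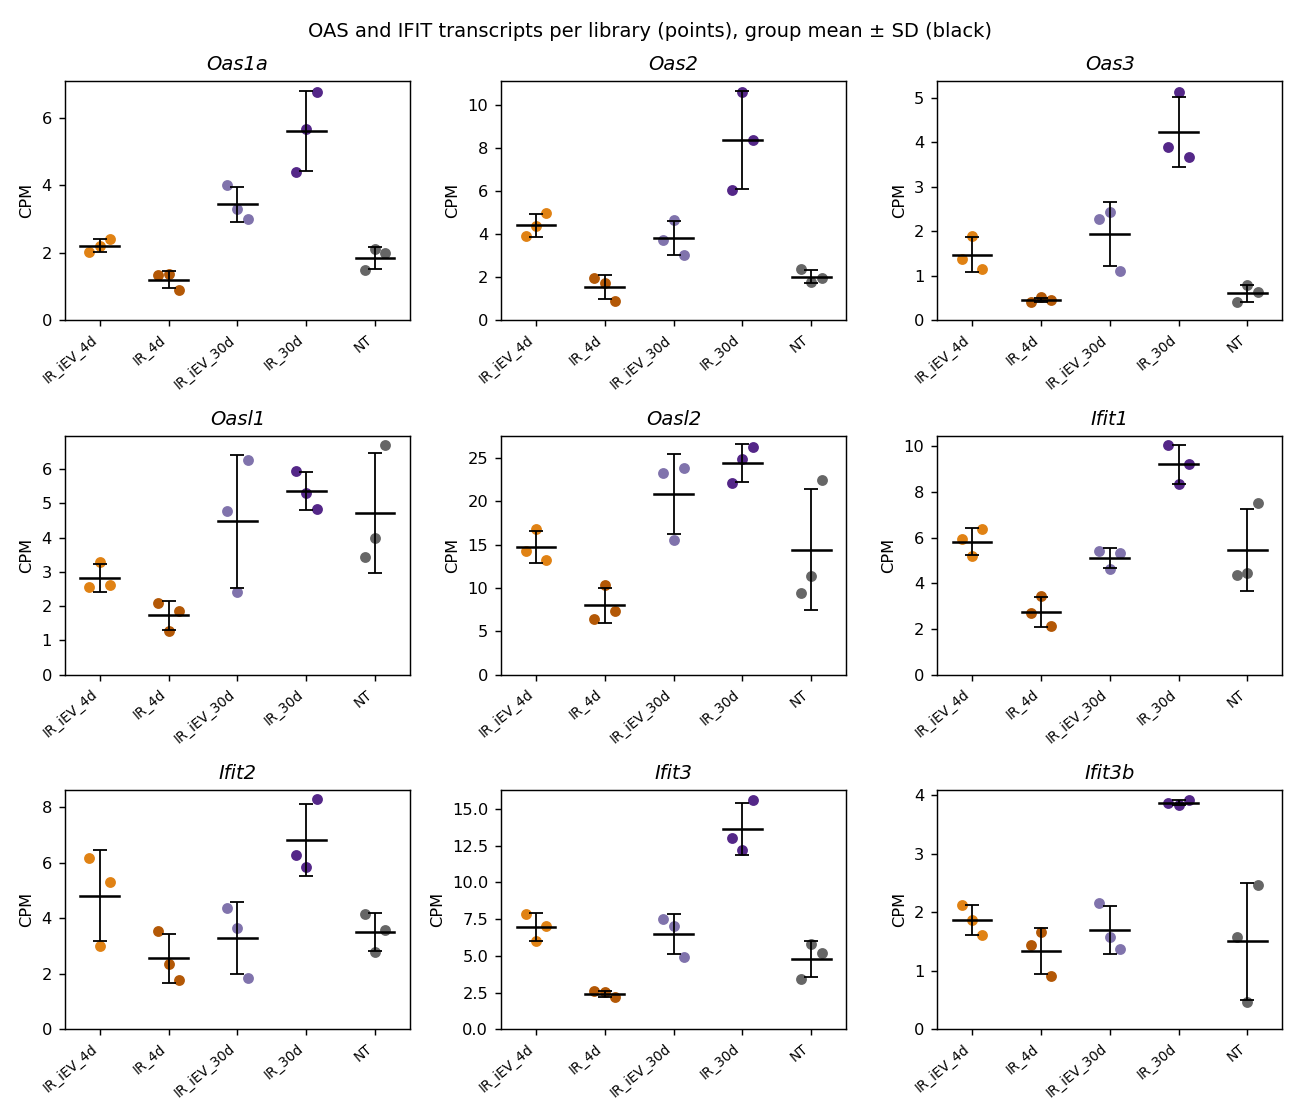
Level of each of the 9 genes in CPM (vertical axis, from 0) in the 5 groups (horizontal axis); points are libraries, black lines the group mean and bars the SD of 3 libraries. The IR_30d mean is the highest and the IR_4d mean the lowest in all 9 panels, and NT replicate 3 stands high for Oasl1 and Oasl2.

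Per kilobase of exon (GENCODE M21 exon unions), Ifit3 was the most abundant of the 9 in every group, at 3.99 ± 0.538, 1.38 ± 0.124, 3.72 ± 0.790, 7.82 ± 1.01 and 2.76 ± 0.705 CPM per kb in IR_iEV_4d, IR_4d, IR_iEV_30d, IR_30d and NT (SD, n = 3 each). Oasl2 came next and Ifit1 after it in every group. Oas3 was the least abundant in every group, at 0.208 ± 0.0547, 0.0652 ± 0.00706, 0.274 ± 0.102, 0.598 ± 0.112 and 0.0856 ± 0.0274 CPM per kb in the same order of groups.

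On day 4 after irradiation 3 of the 9 genes fell in IR_4d against NT. Ifit3 had a log2 change of -0.99 ± 0.21 (SE, adjusted p = 0.0199), Ifit1 one of -0.99 ± 0.22 (adjusted p = 0.0239) and Oasl1 one of -1.45 ± 0.32 (adjusted p = 0.0275). Adjusted p-values are from edgeR's quasi-likelihood test over all tested genes, with 0.05 as threshold. All 9 log2 changes were below 0, with a median of -0.63 beside -0.0032 over all genes. In this comparison 0.561% of all genes fell. The groups did not overlap for these 3 genes and Oas1a, 4 of 9, beside 9.31% of all genes lower without overlap.

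The other 6 did not pass, among them Oasl2 at -0.86 ± 0.29 (adjusted p = 0.234), Oas1a at -0.63 ± 0.24 (adjusted p = 0.283) and Ifit3b at -0.19 ± 0.39 (adjusted p = 0.921). The count of 3 became 0 without IR_4d replicate 1, IR_4d replicate 3 or NT replicate 3, and 1 without IR_4d replicate 2 or NT replicate 2. It was 4 with DESeq2, 1 when the 2 groups were fitted alone, and 0 with limma-voom, with levels of sublingual and adipose markers as covariates, or without the 6 libraries high in sublingual markers.

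By day 30 the direction was the opposite, and 5 of the 9 genes rose in IR_30d against NT. Oas3 rose by 2.80 ± 0.34 (log2 ± SE, edgeR adjusted p = 9.07e-05), Oas2 by 2.04 ± 0.26 (adjusted p = 0.000175) and Oas1a by 1.59 ± 0.23 (adjusted p = 0.00045). Ifit3 rose by 1.50 ± 0.20 (adjusted p = 0.000201) and Ifit1 by 0.75 ± 0.21 (adjusted p = 0.0464). Among all genes 3.19% rose. The median of the 9 log2 changes was 1.34, beside -0.0038 over all genes, and 7 of 9 were higher without overlap between the groups, beside 12.6% of all genes.

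Of the 4 that did not pass, Ifit3b stood at 1.34 ± 0.38 (adjusted p = 0.0565), Ifit2 at 0.96 ± 0.32 (adjusted p = 0.118), Oasl2 at 0.75 ± 0.28 (adjusted p = 0.187) and Oasl1 at 0.18 ± 0.30 (adjusted p = 0.857). Oas1a, Oas2, Oas3 and Ifit3 kept their call in all 16 alternative analyses, and Ifit1 in 6 of the 16. The call of Ifit1 ended without each library but NT replicate 3, and with the replicate number as a block (4 genes then passed). Without NT replicate 3, Oasl2 (adjusted p = 0.00412) and Ifit3b (adjusted p = 0.013) passed as well, and 7 genes rose.

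The day 4 iEV change ran upwards, and 1 of the 9 genes rose in IR_iEV_4d against IR_4d. Ifit3 averaged 6.97 ± 0.938 CPM in IR_iEV_4d and 2.42 ± 0.217 CPM in IR_4d (SD, n = 3 each), a log2 change of 1.52 ± 0.21 (adjusted p = 0.0104). All 9 changes were above 0, from 0.47 for Ifit3b to 1.67 for Oas3, with a median of 0.90 beside -0.0037 over all genes. Of all genes 0.0312% rose in this comparison. The groups did not overlap for 7 of the 9, all but Ifit2 and Ifit3b, beside 7.31% of all genes higher without overlap.

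Oas3 at 1.67 ± 0.36 (adjusted p = 0.188), Oas2 at 1.50 ± 0.27 (adjusted p = 0.0724) and Ifit1 at 1.07 ± 0.22 (adjusted p = 0.155) did not pass. DESeq2 called these 3 too, upper quartile scaling and no low-count filter added Oas2, and limma-voom called 0 of 9. The call of Ifit3 ended without IR_iEV_4d replicate 1 or any 1 of the 3 IR_4d libraries, with marker levels as covariates, or after removal of the 6 libraries high in sublingual markers, which leaves 1 library in each group.

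On day 30 the iEV change ran downwards, and 2 of the 9 genes fell in IR_iEV_30d against IR_30d. Ifit3 averaged 6.49 ± 1.38 CPM in IR_iEV_30d and 13.6 ± 1.77 CPM in IR_30d, a log2 change of -1.07 ± 0.19 (adjusted p = 0.0145). Oas2 averaged 3.81 ± 0.803 CPM in IR_iEV_30d and 8.36 ± 2.27 CPM in IR_30d, a change of -1.14 ± 0.25 (adjusted p = 0.0419). All 9 changes were below 0, with a median of -1.05 beside -0.0096 over all genes, and 0.630% of all genes fell. Without overlap between groups 7 of 9 were lower, beside 11.0% of all genes.

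The exceptions were the OAS-like genes, Oasl1 at -0.25 ± 0.30 (adjusted p = 0.775) and Oasl2 at -0.22 ± 0.28 (adjusted p = 0.790), while Ifit3b at -1.19 ± 0.38 (adjusted p = 0.186), Oas3 at -1.13 ± 0.31 (adjusted p = 0.110) and Ifit1 at -0.85 ± 0.21 (adjusted p = 0.0712) did not pass. The count of 2 became 0 without IR_iEV_30d replicate 3, IR_30d replicate 2 or IR_30d replicate 3 or with marker levels as covariates, 1 without IR_iEV_30d replicate 1 or with the replicate number as a block, 5 with DESeq2 and 4 with limma-voom. Without IR_iEV_30d replicate 2, the library of its group that is high in sublingual markers, it stayed at 2 and the sign for Oasl1 turned (0.047).

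**Figure D2:**
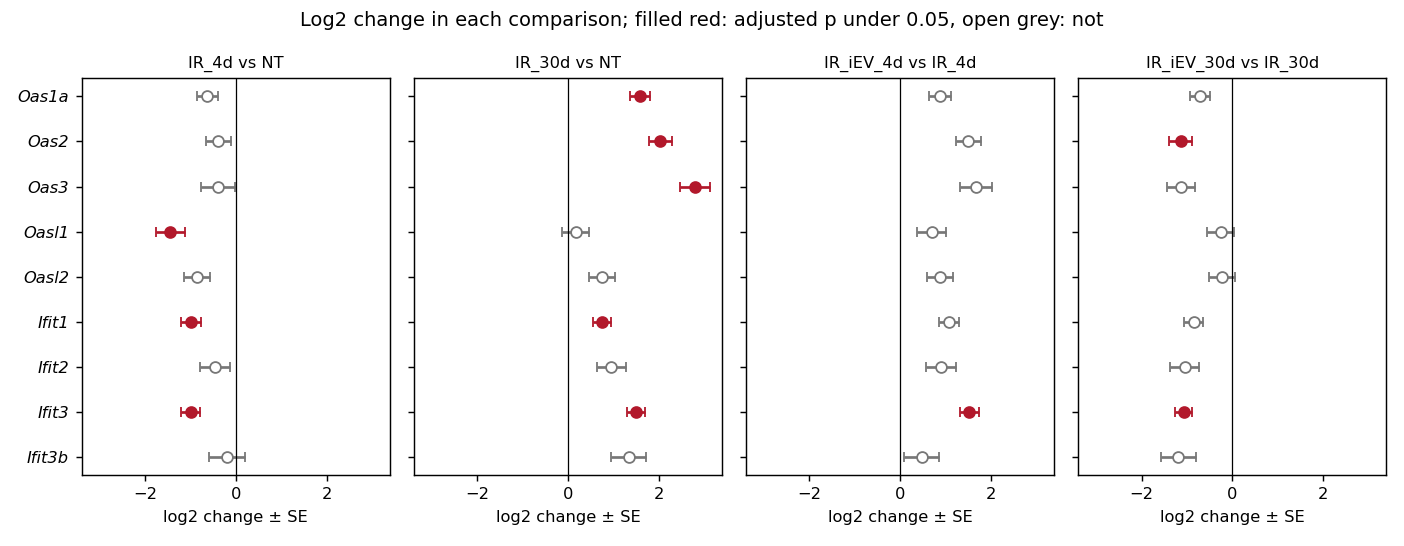
Log2 change ± SE (horizontal axis) of each gene (rows) in 4 comparisons (panels); filled red points have an adjusted p under 0.05 and open grey points do not. All 9 points lie left of 0 in IR_4d vs NT and IR_iEV_30d vs IR_30d, and right of 0 in IR_30d vs NT and IR_iEV_4d vs IR_4d.

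On each day the irradiation change and the iEV change use the same 3 IR libraries, once as numerator and once as denominator, and so are not independent. Side by side, the iEV change and the irradiation change of Ifit3 were 1.52 and -0.99 on day 4, and -1.07 and 1.50 on day 30. For Oas2 they were 1.50 and -0.38 on day 4, and -1.14 and 2.04 on day 30.

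Injections were weekly from day 1, so the number received differed between the days and cannot be told apart from the day. The difference of the iEV change between days was tested in the same model. By construction it equals IR_iEV_30d against IR_iEV_4d minus IR_30d against IR_4d, so it is not independent of either. The medians of these parts over the 9 genes were -0.10 and 1.74. The difference was below 0 for all 9 genes, from -2.80 for Oas3 to -0.95 for Oasl1. Its median was -1.92 beside -0.0084 over all genes. It passed for Ifit3 (-2.60 ± 0.28, adjusted p = 0.000787), Oas2 (-2.64 ± 0.37, adjusted p = 0.00395), Ifit1 (-1.92 ± 0.30, adjusted p = 0.00989) and Oas3 (-2.80 ± 0.47, adjusted p = 0.0163), 4 of 9 beside 0.125% of all genes. Ifit3 and Oas2 kept this call in all 21 alternatives. Ifit1 lost it with marker levels as covariates (adjusted p = 0.140) and after removal of the 6 libraries high in sublingual markers (adjusted p = 0.146), and Oas3 lost it in 7 alternatives, among them those without IR_iEV_4d replicate 2, IR_4d replicate 1, IR_4d replicate 3 or IR_30d replicate 2.

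Between days, the irradiated glands without iEVs differed for each of the 9 genes. All 9 genes rose in IR_30d against IR_4d, from 1.41 ± 0.33 for Ifit2 (adjusted p = 0.0167) to 3.19 ± 0.35 for Oas3 (adjusted p = 4.09e-05), beside 4.81% of all genes. The median was 1.74, beside -0.012 over all genes, and no gene had overlapping groups, beside 16.4% of all genes higher without overlap. Marker levels as covariates left 5 of the 9 calls (Oas1a, Oas2, Oas3, Ifit1 and Ifit3), and leaving out any 1 library left 7 or 8. Ifit3b lost its call without any 1 of the 6 libraries.

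In IR_iEV_30d against IR_iEV_4d 0 of the 9 passed with edgeR, DESeq2 or limma-voom, beside 4.32% of all genes higher and 3.95% lower with edgeR. With an unadjusted p under 0.05 there were 2 of 9, Oas1a (0.63 ± 0.22) and Oasl1 (0.67 ± 0.31). That share is near the one over all genes, 3869 of 16042 with DESeq2 size factors in edgeR. The median of the 9 changes was -0.10. Leaving out IR_iEV_30d replicate 2 gave 1 call, Oasl1 (0.97, adjusted p = 0.0473). A change that does not pass is not shown to be absent, and the days were compared only as groups of different glands. The number of injections received also differed between these 2 groups.

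Against NT, each iEV group had 1 call. In IR_iEV_4d 1 of 9 rose, Oas2 (1.12 ± 0.26, adjusted p = 0.0305), beside 1.35% of all genes, and Oas3 stood at 1.28 ± 0.34 (adjusted p = 0.0535). In IR_iEV_30d 1 of 9 rose, Oas3 (1.67 ± 0.34, adjusted p = 0.0164), beside 0.655% of all genes, with Oas2 at 0.90 ± 0.26 (adjusted p = 0.127). Ifit1 was at 0.085 ± 0.21 in IR_iEV_4d and -0.10 ± 0.21 in IR_iEV_30d, and neither passed (adjusted p = 0.885 and 0.869). The call of Oas2 in IR_iEV_4d held in 1 of 6 fits that left out a library (without NT replicate 1) and that of Oas3 in 2 of 6 (without IR_iEV_30d replicate 3 or NT replicate 2).

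Reads of near-identical paralogs could be split differently by another counting rule. Of the 50-base windows in Ifit3 transcripts (GENCODE M21), 51.2% also occurred in another gene, all of them in Ifit3b, and of those in Oas1a 57.6% occurred in Oas1g. For 100-base windows the shares were 31.7% and 40.9%. Ifit1 shared 7.13% of its 50-base windows, and Oas2, Oasl1 and Ifit2 shared none. The split of reads within the pairs Ifit3 and Ifit3b and Oas1a and Oas1g is therefore uncertain, and their sums do not depend on it. A rule that discards shared reads would lower these sums, and the levels per kilobase of Ifit3, Ifit3b and Oas1a given above. Which rule was used is not given.

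Ifit3 and Ifit3b together had 8.84 ± 1.07, 3.75 ± 0.592, 8.19 ± 1.73, 17.5 ± 1.81 and 6.31 ± 1.31 CPM in IR_iEV_4d, IR_4d, IR_iEV_30d, IR_30d and NT (SD, n = 3 each). Oas1a and Oas1g together had 3.31 ± 0.596, 1.45 ± 0.239, 4.61 ± 0.129, 7.24 ± 1.54 and 2.09 ± 0.393 CPM in the same groups. Both sums had IR_30d highest and IR_4d lowest. Exons of Gm13822 lie opposite those of Oasl1, and with the strand setting of the counting not given their reads cannot be told apart in every case. Gm13822 itself had 15 counts over all libraries.

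Relatives of the family were read from a list. Oas1g, a further synthetase beside Oas1a, averaged 1.09 ± 0.548, 0.252 ± 0.0904, 1.18 ± 0.440, 1.64 ± 0.776 and 0.228 ± 0.109 CPM in IR_iEV_4d, IR_4d, IR_iEV_30d, IR_30d and NT. It rose in IR_iEV_4d (2.21 ± 0.51, adjusted p = 0.0301), IR_iEV_30d (2.31 ± 0.51, adjusted p = 0.0331) and IR_30d (2.77 ± 0.51, adjusted p = 0.0038) against NT. In IR_4d, where it had 5 to 11 counts per library, its change from NT was 0.090 ± 0.57 (adjusted p = 0.980).

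Pde12, a phosphodiesterase that degrades oligoadenylates, fell in IR_iEV_30d against IR_iEV_4d (-0.64 ± 0.13, adjusted p = 0.00637) and passed in no other comparison. Abce1, an ATP-binding protein of ribosome recycling, and Oas1c passed in none of the 9 comparisons. In IR_30d against IR_4d 3 of 7 tested relatives rose, beside 4.81% of all genes, among them Oas1b (1.29 ± 0.30, adjusted p = 0.0133). Ifit1bl1 (3.64 ± 0.97, adjusted p = 0.0289) also passed, on 15 to 30 counts in IR_30d and 0 to 3 counts in IR_4d, so that its fold change is poorly fixed. It met the low-count filter only with the IR_30d libraries, the group in which it was then higher, so this call carries no weight. Ifit1bl2, with 0 to 14 counts per library, was not tested.

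The wider interferon pathway was described with 7 lists of 120 symbols, of which 94 were matched to rows and 92 were tested. Beside 0.561% of all genes, 5 of 92 fell in IR_4d against NT: Rtp4 (-1.16 ± 0.21), Irf7, the factor that amplifies interferon transcription (-1.07 ± 0.19), Cmpk2 (-1.30 ± 0.25), Rsad2, which encodes viperin (-1.13 ± 0.23), and Samhd1 (-0.48 ± 0.10). In IR_30d against NT 22 of 92 rose, beside 3.19% of all genes higher, with a median of 0.43 over the 92. These were 12 of 39 further effectors, 5 of 17 sensors and adaptors, 3 of 15 JAK, STAT and IRF factors, 1 of 8 negative regulators and 1 of 7 relatives.

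Among the 22 were the tethering protein Bst2 (1.03 ± 0.14), the nucleic acid sensor Zbp1 (2.17 ± 0.35) and Irf7 (1.20 ± 0.19). Of 6 interferon receptor genes 0 passed by edgeR in IR_4d against NT (2 with an unadjusted p under 0.05) and 0 in IR_30d against NT (0 with an unadjusted p under 0.05). With DESeq2 size factors in edgeR, 1859 of all 16042 genes had such a p in IR_4d against NT. The 2 on day 4, both lower without overlap, were Ifnlr1, a chain of the type III interferon receptor (-0.43 ± 0.12, adjusted p = 0.0828), and Ifngr1, a chain of the interferon gamma receptor (-0.33 ± 0.093, adjusted p = 0.0993). Of 21 interferon genes listed, Ifng was matched, with 6 counts in 4 of the 15 libraries, too few to test.

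For the iEV change, 3 of 92 rose in IR_iEV_4d against IR_4d, beside 0.0312% of all genes (5 genes): Rtp4 (1.52 ± 0.21), Irf7 (1.43 ± 0.20) and Bst2 (0.89 ± 0.14), with a median of 0.23 over the 92. In IR_iEV_30d against IR_30d 1 of 92 fell, Helz2 (-0.65 ± 0.11), a share near the 0.630% of all genes that fell, with a median of -0.27. The difference of the iEV change between days was lower for 5 of 92, beside 0.125% of all genes. These were Rtp4, Irf7, Bst2, Cmpk2 and Ifitm3, and Rtp4 had the lowest adjusted p among them (-2.30 ± 0.29, adjusted p = 0.00149). In IR_30d against IR_4d 53 of 92 rose (Ifit1bl1 included), beside 4.81% of all genes, 30 of them among the 39 further effectors.

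**Figure D3:**
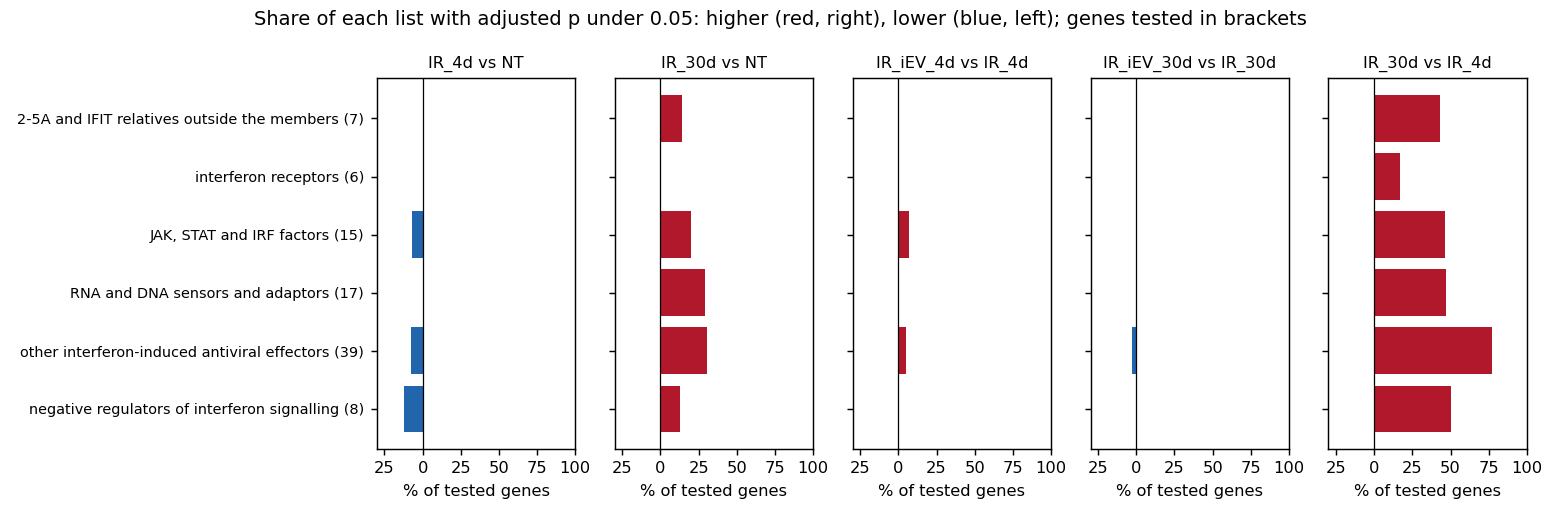
Share of the tested genes of each list (rows, number tested in brackets) with an adjusted p under 0.05, higher to the right in red and lower to the left in blue, in 5 comparisons (panels). The further effectors are the list with the longest bar in IR_30d vs IR_4d, 30 of 39, and in IR_30d vs NT, 12 of 39.

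Genes whose pattern was most like that of the 9 were found by the root mean square (RMS) difference of centred log2 CPM from the family mean over 15 libraries. Tested genes with predicted-gene names (Gm and a number) or clone names ending in Rik were left out. The 10 closest of 14163 candidates were Rtp4 (RMS 0.259), Ms4a6b, Slfn2, Irf7, Ifi47, Gbp3, Bst2, Ms4a6c, C1qb and Lyz2 (RMS 0.298), beside a median RMS of 0.720 over all candidates. Of these, Rtp4, Irf7, Ifi47 and Bst2 belong to the pathway lists. The members themselves lay at an RMS between 0.239 for Oas1a and 0.586 for Oas3, though each is part of that mean. The group means of C1qb, a complement gene of macrophages, were 26.8 ± 0.510, 19.02 ± 2.47, 31.2 ± 3.14, 43.6 ± 6.33 and 22.3 ± 1.84 CPM in IR_iEV_4d, IR_4d, IR_iEV_30d, IR_30d and NT.

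**Figure D4:**
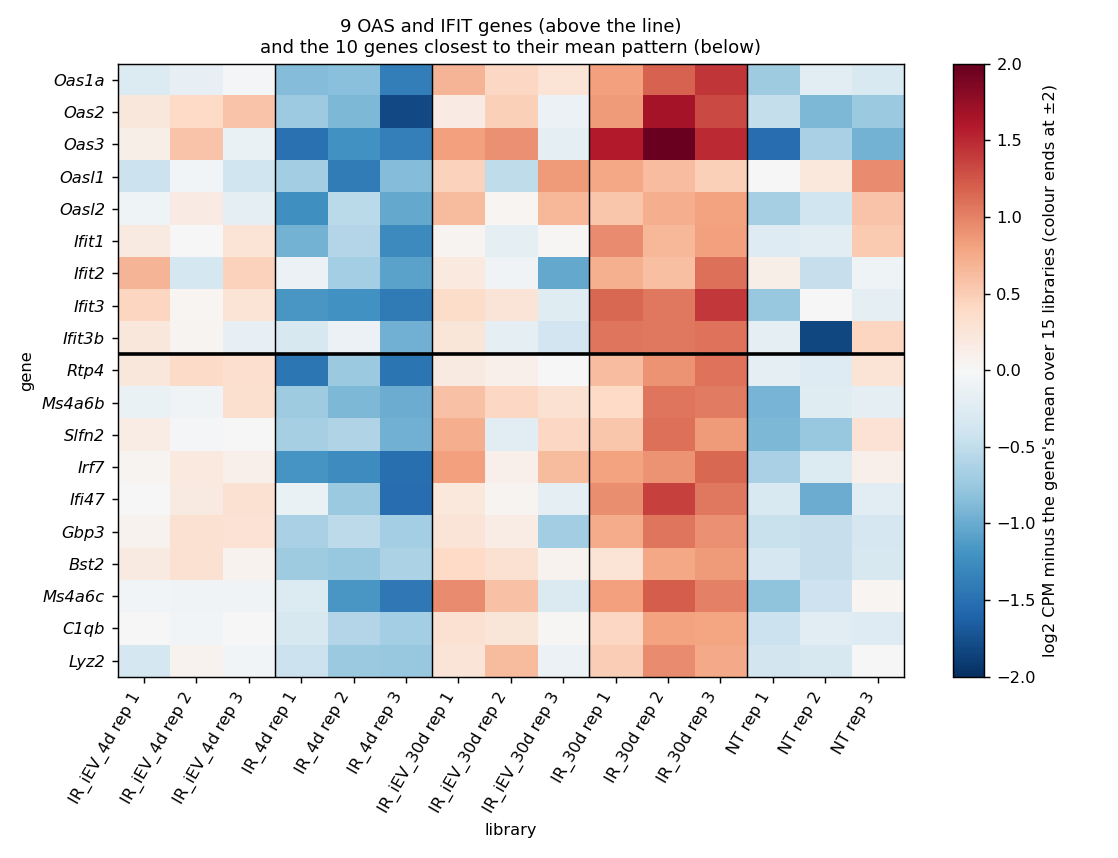
Log2 CPM minus the gene's own mean over 15 libraries (colour) for the 9 OAS and IFIT genes above the line and the 10 genes closest to their mean pattern below it, in each library (columns). The 3 IR_4d columns are blue and the 3 IR_30d columns red for nearly all genes, and among the 9 Oas3 and Oas2 vary most.

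Markers of macrophages and monocytes were highest in IR_30d, as the 9 genes were. By the mean log2 CPM of the list, IR_30d (3.83 to 4.15) lay above and IR_4d (2.87 to 3.06) below all other libraries. Between them were IR_iEV_4d at 3.30 to 3.46, NT at 3.11 to 3.42 and IR_iEV_30d at 3.12 to 3.75. Only by summed levels did the groups overlap on day 4. The summed level ran from 211 to 243 CPM in IR_iEV_4d, 201 to 213 CPM in IR_4d, 206 to 282 CPM in IR_iEV_30d, 328 to 421 CPM in IR_30d and 210.0 to 244 CPM in NT. Of 12 markers 8 rose in IR_30d against NT, beside 3.19% of all genes, and 9 in IR_30d against IR_4d, beside 4.81%. In IR_4d against NT 2 of 12 fell, beside 0.561% of all genes, with a median of -0.20 where the 9 genes had -0.63. In IR_iEV_30d against IR_30d 1 of 12 fell, beside 0.630%, 8 had an unadjusted p under 0.05 and the median was -0.49. In IR_iEV_4d against IR_4d 0 of the 12 passed by edgeR, 5 had an unadjusted p under 0.05 and the median was 0.27. With DESeq2 size factors in edgeR, 2067 of all 16042 genes had such a p on day 30 and 1091 on day 4. A marker of the 12 was at 0 in 1 library, IR_4d replicate 2, and none in the others. Their part in the changes of the OAS and IFIT genes was not tested.

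T and NK cell markers had a different order, with summed levels of 3.83 to 6.94 CPM in IR_iEV_4d, 3.81 to 5.83 CPM in IR_4d, 12.4 to 15.2 CPM in IR_iEV_30d, 12.7 to 13.9 CPM in IR_30d and 9.51 to 13.0 CPM in NT. Of 8 tested markers 2 fell in IR_4d against NT, beside 0.561% of all genes, and 3 rose in IR_30d against IR_4d, beside 4.81%, where the summed levels did not overlap. With edgeR 0 passed in IR_30d against NT, IR_iEV_4d against IR_4d or IR_iEV_30d against IR_30d, where 0, 1 and 0 had an unadjusted p under 0.05. Of the 12 listed, the number at 0 in a library was 0 to 3 in IR_iEV_4d, 1 to 4 in IR_4d, 0 in IR_iEV_30d, 0 to 2 in IR_30d and 1 to 2 in NT. Dendritic cell markers had 1 of 8 lower in IR_4d against NT (6 with an unadjusted p under 0.05, median -1.85), beside 0.561% of all genes. In IR_30d against NT 1 of 8 was higher (2 with an unadjusted p under 0.05, median 0.53), beside 3.19%. In IR_30d against IR_4d 4 of 8 were higher (median 2.45), beside 4.81%. With DESeq2 size factors in edgeR, 1859 of all 16042 genes had an unadjusted p under 0.05 in IR_4d against NT and 2611 in IR_30d against NT. Mean log2 CPM of the dendritic cell list was highest in IR_30d (0.654 to 0.835) and lowest in IR_4d (-1.12 to -1.02). Neither group overlapped another, and the OAS and IFIT genes had the same ends. Summed levels of this list overlapped between IR_4d (61.5 to 75.1 CPM) and IR_30d (72.8 to 77.9 CPM). In each IR_4d library 2 of the 8 markers were at 0, against 0 markers in each IR_30d library. The mean log2 CPM of IR_4d therefore rests partly on the prior count. With edgeR 0 of 8 passed for the iEV change on day 4 (median 0.52) or day 30 (median -0.33). On each day 2 had an unadjusted p under 0.05. With DESeq2 size factors in edgeR, 1091 of all 16042 genes had such a p on day 4 and 2067 on day 30. The part of these cell types was not tested either.

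Markers of the granular convoluted tubules, a gland cell type, were also highest in IR_30d. Their summed level ran from 47949 to 78441 CPM in IR_iEV_4d, 66790.3 to 83401 CPM in IR_4d, 78868 to 113258 CPM in IR_iEV_30d, 161618 to 175759 CPM in IR_30d and 61322 to 92411 CPM in NT. Of 7 markers, 7 rose in IR_30d against NT (median 1.29, beside 3.19% of all genes), 7 rose in IR_30d against IR_4d (median 1.23, beside 4.81%) and 6 fell in IR_iEV_30d against IR_30d (median -1.09, beside 0.630%). On day 4 with edgeR 0 of 7 passed in IR_4d against NT (0 with an unadjusted p under 0.05, median -0.052) and 0 of 7 in IR_iEV_4d against IR_4d (3 with an unadjusted p under 0.05, median -0.38). With DESeq2 size factors in edgeR, 1091 of all 16042 genes had such a p in IR_iEV_4d against IR_4d. The part of the tubule markers in the changes of the 9 genes was not tested.

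**Figure D5:**
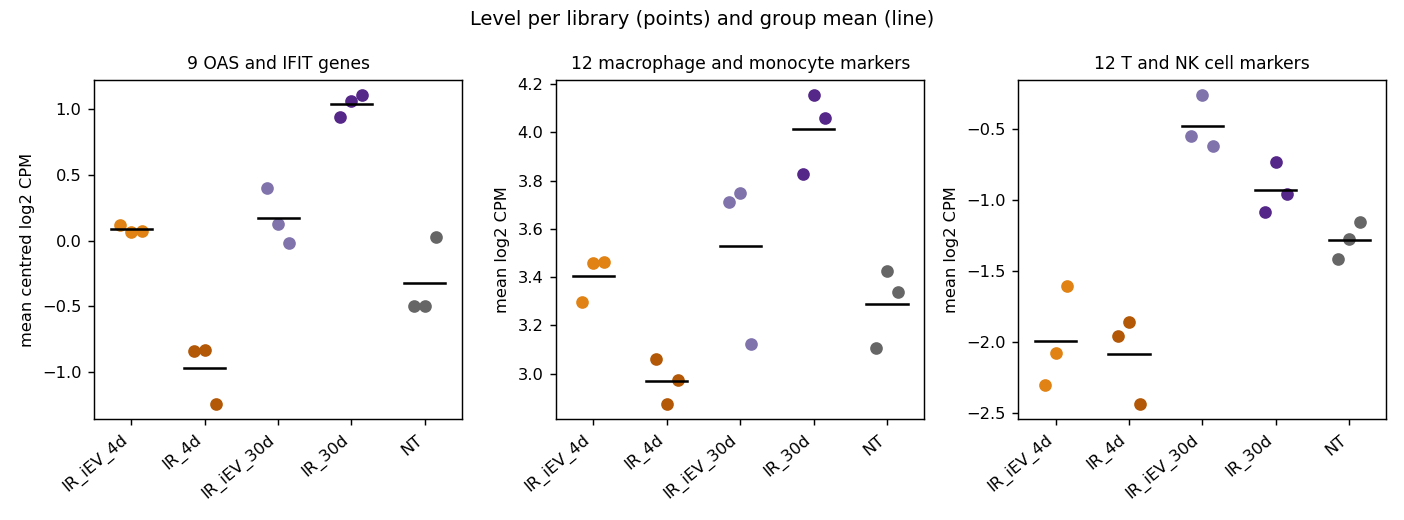
Mean level per library (points) and group mean (lines) of the 9 OAS and IFIT genes (left, centred log2 CPM), 12 macrophage and monocyte markers (middle, log2 CPM) and 12 T and NK cell markers (right, log2 CPM). The first and second panels both have IR_30d highest and IR_4d lowest, while in the third the IR_iEV_30d libraries are highest.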

How the data were processed

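The authors deposited whole-number read counts per gene symbol, 1 column per library. TopHat, HTSeq, DESeq2 and the build GRCm39 are named without version or role, per the submitters' processing notes, and RNA was taken with TRIzol into a stranded kit, per the labels' protocols. The annotation, the strand setting and how multiply mapped reads were treated are not given in the sources used here. Of 21013 symbols, 15 had no count in any library. All were fitted with edgeR 4.0.16 (R 4.3.3): filterByExpr with a minimum count of 10 and a minimum total of 15, TMM scaling, and the quasi-likelihood F test with robust dispersions, all 15 libraries in a single model with 10 residual degrees of freedom. Benjamini-Hochberg adjustment was made over all tested genes, separately in each of the 9 comparisons. The SE of a log2 change is its absolute value divided by the square root of F. Log2 CPM used a prior count of 2. The 9 genes, the lists of pathway genes and markers and the tests were chosen with earlier results of these data known. The genes named are the 9 members, the 10 closest in pattern, the relatives (1 is not reported here), and up to 4 genes of lowest p per pathway list, with every gene named where 5 or fewer were called. Alternatives were DESeq2 1.42.0, limma-voom 3.58.1, other scalings, no filter, the compared groups alone, the replicate number as a block, sublingual and adipose levels (mean log2 CPM of the list) as covariates, and leaving out libraries. The limit of 5 on the sublingual level was added after the data were seen. Exon lengths and transcript windows are from GENCODE M21, which is on the preceding build GRCm38, as are the RefSeq promoters, so no position on GRCm39 is given. The pipeline was tested on simulated counts. Precision is limited by 3 libraries per group and, for the lowest genes, by their counts.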

Additional observations from a re-analysis of the deposited data

Results flagged for a closer look

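The iEV change differed between day 30 and day 4, by the test of that difference in edgeR, for Oas2 (-2.64, adjusted p = 0.00395), Oas3 (-2.80, adjusted p = 0.0163), Ifit1 (-1.92, adjusted p = 0.00989) and Ifit3 (-2.60, adjusted p = 0.000787), all on the log2 scale. The irradiation change against NT differed between day 30 and day 4 for all 9 genes, a difference that equals IR_30d against IR_4d because the NT libraries cancel. Its log2 size was 2.22 for Oas1a, 2.42 for Oas2, 3.19 for Oas3, 1.62 for Oasl1, 1.60 for Oasl2, 1.74 for Ifit1, 1.41 for Ifit2, 2.49 for Ifit3 and 1.52 for Ifit3b, with adjusted p-values from 2.42e-06 for Ifit3 to 0.0244 for Ifit3b. Both differences use the same IR_4d and IR_30d libraries, with opposite signs, and so are not independent results. The NT glands are 1 group with no stated day, and in the iEV groups the number of weekly injections cannot be told apart from the day.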

How the results depend on the processing

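Counts of the 9 genes called kept within 1.5 times of the reported count, in settings that leave out no single library, except as follows. IR_4d against NT (3 reported) had 0 with limma-voom, 0 with sublingual and adipose levels as covariates, 1 with the 2 groups fitted alone and 0 without the libraries above 5 in sublingual level. IR_iEV_4d against IR_4d (1 reported) had 4 with DESeq2, 0 with limma-voom, 2 with upper quartile scaling, 2 with no low-count filter, 0 with the covariates and 0 without the libraries above 5. IR_iEV_30d against IR_30d (2 reported) had 5 with DESeq2, 4 with limma-voom, 1 with the replicate number as a block, 0 with the covariates and 1 without the libraries above 1. IR_30d against IR_4d (9 reported) had 5 with the covariates. IR_iEV_4d against NT (1 reported) had 2 with DESeq2, 2 with the block, 0 with the covariates, 0 with the groups alone and 0 without the libraries above 5. IR_iEV_30d against NT (1 reported) had 3 with DESeq2 and 0 with limma-voom, with the groups alone and without the libraries above 1 or above 5. The difference of the iEV change between days (4 reported) had 2 with the covariates and 2 without the libraries above 5. The cause was not tested. Removing libraries above 1 left none of day 4, so the day 4 comparisons have no value there, and the limit of 5 was chosen after seeing the data.

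The labels do not state that the replicate numbers pair the libraries. Deviations of same-numbered libraries from their group means correlated above 0.1 in 5 of 30 pairs, with a median r of -0.0386. Other pairs did so in 8 of 60, with a median r of 0.0124. Deviations within a group of 3 sum to 0, so these values cannot exclude a shared litter or day. With the number as a block, calls were 3 in IR_4d against NT, 4 in IR_30d against NT, 1 in IR_iEV_4d against IR_4d, 1 in IR_iEV_30d against IR_30d, 9 in IR_30d against IR_4d, 0 in IR_iEV_30d against IR_iEV_4d, 2 in IR_iEV_4d against NT, 1 in IR_iEV_30d against NT and 4 for the difference between days.

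Leaving out 1 library gave 0 to 3 calls in IR_4d against NT, 4 to 7 in IR_30d against NT, 0 to 1 in IR_iEV_4d against IR_4d, 0 to 2 in IR_iEV_30d against IR_30d, 7 to 8 in IR_30d against IR_4d, 0 to 1 in IR_iEV_30d against IR_iEV_4d, 0 to 1 in IR_iEV_4d against NT, 0 to 1 in IR_iEV_30d against NT and 3 to 5 for the difference between days. A lone library left in a group is assumed to vary like the other groups.

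Among log2 changes of single genes, 680 of 756 kept direction and side of the threshold under the other settings and 464 of 540 with 1 library left out. The sign turned in 11 and 19, none past the threshold. Without the libraries above 1 it turned for Oasl1 in IR_30d against NT (-0.0027), IR_iEV_30d against IR_30d (0.038) and IR_iEV_30d against NT (0.035). Without the libraries above 5 it turned for Oasl1 in the same comparisons (-0.035, 0.062 and 0.027) and in IR_iEV_4d against NT for Oas1a (-0.038), Oasl2 (-0.30) and Ifit1 (-0.064). With the covariates it turned for Ifit3b in IR_iEV_30d against IR_iEV_4d (0.14) and Oasl1 in IR_iEV_30d against NT (0.029). With 1 library left out, these changes spanned 0: Ifit3b in IR_4d against NT (-0.59 to 0.38), Oasl1 in IR_30d against NT (-0.0080 to 0.54), Oasl1 in IR_iEV_30d against IR_30d (-0.57 to 0.047), Ifit3 and Ifit3b in IR_iEV_30d against IR_iEV_4d (-0.22 to 0.071 and -0.33 to 0.0082), Oasl2, Ifit1 and Ifit3b in IR_iEV_4d against NT (-0.21 to 0.50, -0.054 to 0.40 and -0.12 to 0.85), and Ifit3b, Oasl1, Ifit2 and Ifit1 in IR_iEV_30d against NT (-0.25 to 0.73, -0.39 to 0.29, -0.35 to 0.20 and -0.24 to 0.22). Depth limits Oas3 and Ifit3b most, with as few as 13 and 15 counts in a library.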
